A study of Mus musculus with 10 samples.

Results

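The genes described here encode parts of the axoneme, the microtubule core of the motile cilium, or factors that build it. They were taken by name from the array's gene annotation: axonemal dynein heavy chains (Dnah), dynein intermediate and light chains (Dnaic, Dnal, Dnali), dynein arm assembly factors (Dnaaf), cilia- and flagella-associated proteins (Cfap), nexin-link subunits (Drc), radial spoke proteins (Rsph) and tektins (Tekt). The annotation held 73 such genes, and 69 of them were measured by a probe set naming that gene alone, among 22180 genes so measured. The other 4 genes, Dnah7b, Dnah7c, Dnaaf2 and Cfap54, had only probe sets shared with other genes and were not analysed. Expression was compared in the trachea of 10 male FVB/NJ mice aged 9 weeks, for which the labels name no transgene or deletion. In the exposed group, 5 mice had breathed chlorine at 235 ppm for 1 hr with the whole body, 4 days before the trachea was collected, and the other 5 mice were unexposed. The title of the series concerns fibrotic lesions forming after chlorine. The material was tissue cut by laser from under the epithelium of stained frozen sections, combined over the sections of each mouse, with 1 array per mouse, and precision is limited by there being 5 arrays in a group. The label calls this tissue mesenchyme. The mesenchymal markers Col1a1, Col1a2, Col3a1, Dcn, Lum, Pdgfra and Pdgfrb were high in every mouse (mean log2 value of the 7 genes 9.65 to 10 in unexposed mice, and in exposed mice 9.94 to 10.65). Epithelial genes were also present in every mouse, as shown further on, although motile cilia belong to the epithelium.

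A motile cilium beats because dynein arms on each outer microtubule doublet walk along the next doublet. Outer arms set the power of the beat and inner arms its shape. Radial spokes and the central pair of microtubules pass signals to the arms, nexin links hold the doublets together, and tektins with other proteins line the inside of the doublets. In the trachea these structures fill the multiciliated cells, which move mucus towards the throat, and many of the genes are mutated in primary ciliary dyskinesia. Dynein arms are put together in the cytoplasm by assembly factors before they are carried into the cilium.

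Across the 69 genes, 17 were called lower and 1 higher in exposed mice, and 51 did not pass (limma adjusted p under 0.05 over all 22180 genes). Among all genes, 4.97% were called lower and 5.85% higher. The median change of the 69 genes was -1.04 on the log2 scale, against -0.0035 for all genes, and 36 of them differed at least 2-fold, as did 4.2% of all genes. Values below are log2 intensities, and a change is the exposed minus the unexposed mean. The captured tissue was measured in bulk, so fewer ciliated cells and less of these transcripts per cell cannot be told apart, nor can a smaller amount of epithelium taken along with a cut. The 5 exposed mice differed widely from each other: the SD was larger in the exposed than in the unexposed group for 63 of the 69 genes, with a median SD of 0.91 against 0.24, while this was so for 60.6% of all genes. Calls depended in part on single mice, exposed or unexposed, while 9 of the called genes kept their call with every single mouse left out. Without exposed mouse 1, 43 genes were called lower, and without exposed mouse 4, exposed mouse 5 or unexposed mouse 4 there were 9 in each case. Without unexposed mouse 1 or 5 there were 11. The share of all genes called lower in these fits was 6.34% without exposed mouse 1 and 3.26% to 3.93% in the other fits just named.

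**Figure D1:**
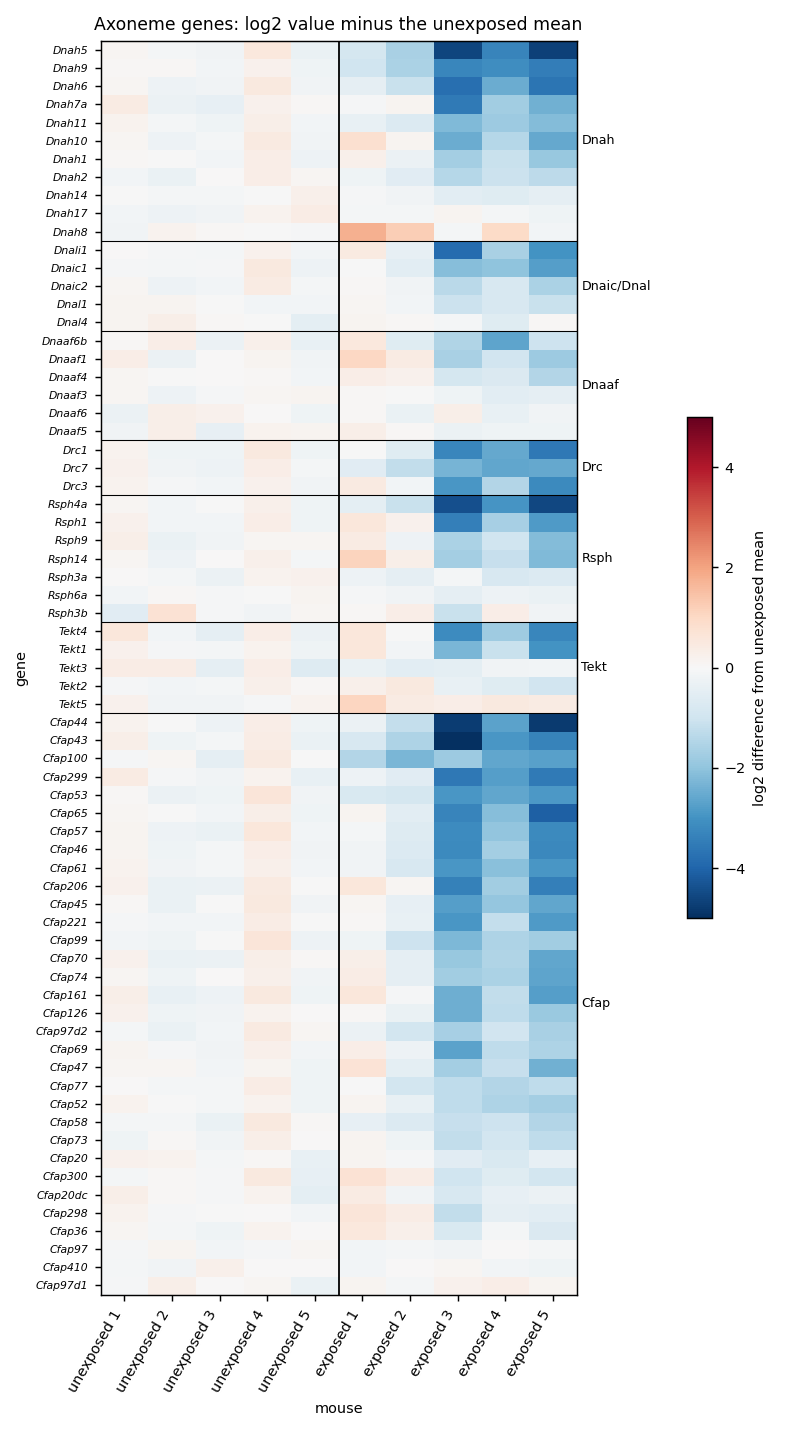
Log2 value of each of the 69 axoneme genes in each mouse (columns) minus the mean of the 5 unexposed mice, blue for lower and red for higher, with genes (rows) grouped by name and ordered by change within a group. Exposed mice 3, 4 and 5 are blue over most rows, exposed mouse 2 is paler, and exposed mouse 1 holds both pale blue and pale red rows.

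Mouse by mouse, the genes did not fall evenly. The median difference from the unexposed mean over the 69 genes was 0.078 in exposed mouse 1, -0.28 in exposed mouse 2, -1.69 in exposed mouse 3, -1.18 in exposed mouse 4 and -1.85 in exposed mouse 5. In the unexposed mice it was -0.154 to 0.253. Exposed mice 1 and 2 thus lay near the unexposed group on this median, and the other 3 lay far below it. In exposed mice 3, 4 and 5, 58 genes in each lay below all 5 unexposed mice, as did 23.2%, 26.2% and 24.5% of all genes. Exposed mouse 2 had 39 such genes (24.6% of all genes) and exposed mouse 1 had 12 (22.6% of all genes). In exposed mouse 1, 24 of the 69 genes lay above all unexposed mice, where 20.6% of all genes did, and exposed mouse 2 had 8, where 22.6% of all genes did. Exposed mice 3, 4 and 5 had 2, 3 and 1 such genes, against 29.2%, 25.6% and 24.7% of all genes. Exposed mouse 1 held the highest exposed value for 59 genes, and the lowest was in exposed mouse 5 for 34 genes and in exposed mouse 3 for 24. At least 3 exposed mice lay below all unexposed mice for 55 of the 69 genes, against 19.5% of all genes.

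**Figure D2:**
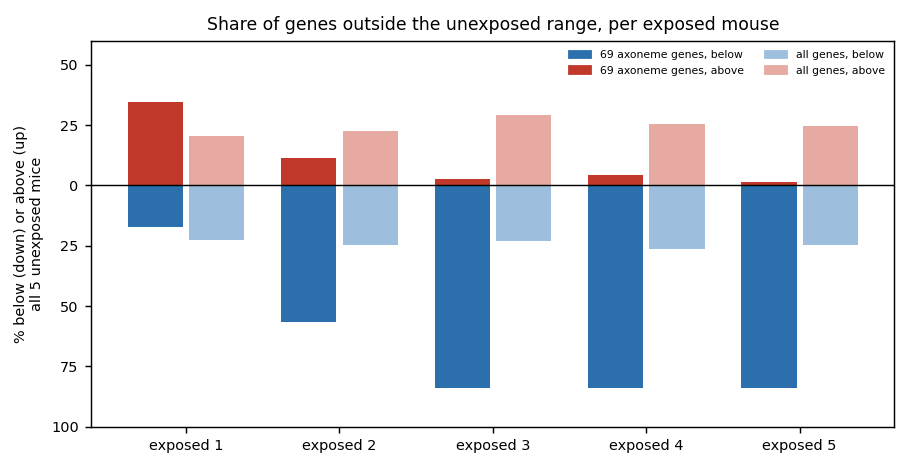
Percentage of the 69 axoneme genes (dark bars) and of all 22180 genes (light bars) that lay below (downward) or above (upward) all 5 unexposed mice, for each exposed mouse. The downward share of axoneme genes is above that of all genes in exposed mice 2 to 5 and below it in exposed mouse 1, where 24 of the 69 genes lie above the unexposed range.

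Of the 5 outer-arm heavy chains, Dnah5, Dnah9 and Dnah11 were called lower, and Dnah5 had the largest reduction of the 69 genes. Dnah5, an outer-arm motor of the respiratory cilium, was 8.81, 8.62, 8.56, 9.26 and 8.38 in unexposed mice 1 to 5 and 7.87, 7.09, 4.12, 5.44 and 4.06 in exposed mice 1 to 5. All exposed values lay below all unexposed values, and those of exposed mice 3 and 5 lay more than 4 units below the unexposed mean. The change was -3.01 (SE 0.66, limma adjusted p = 0.0135), an 8.06-fold difference between means of 8.73 ± 0.33 and 5.72 ± 1.72 (SD, n = 5 each). Dnah9, the outer-arm chain of the outer stretch of the cilium, was 8.03, 8.03, 7.81, 8.19 and 7.75 in unexposed and 6.96, 6.38, 4.72, 4.86 and 4.52 in exposed mice. Here too the groups did not overlap, and exposed mouse 1 was more than 0.7 below the lowest unexposed mouse. Its change was -2.47 (SE 0.42, limma adjusted p = 0.00342). Dnah11, the outer-arm chain nearer the base, was lower by a smaller amount (-1.45, SE 0.34, limma adjusted p = 0.0187), its exposed mice spanning 4.60 to 6.44 and its unexposed mice 6.59 to 7.10. The calls of Dnah5, Dnah9 and Dnah11 held with each mouse left out (adjusted p 0.00167 to 0.0378, 0.000337 to 0.0118 and 0.00253 to 0.0498). For these 3 genes even exposed mouse 1, which was near the unexposed group on the median of the 69 genes, lay below every unexposed mouse. The other pair of outer-arm heavy chains, Dnah8 and Dnah17, is known from sperm rather than from airway cilia, and neither was called.

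Dnah8 stood above the unexposed range in part of the exposed group. It was 4.47, 4.82, 4.68, 4.62 and 4.59 in unexposed mice and 6.42, 5.88, 4.55, 5.60 and 4.5 in exposed mice. Exposed mice 1, 2 and 4 lay above all unexposed mice, and exposed mice 3 and 5 lay within their range. The change did not pass (0.75, SE 0.33, limma adjusted p = 0.181). Dnah17 stayed within 3.68 to 4.30 in all 10 mice, with a change of -0.084 (limma adjusted p = 0.762).

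Inner-arm heavy chains split into called and uncalled genes. Dnah6, a single-headed inner-arm motor, was 8.37, 8.04, 8.11, 8.77 and 8.12 in unexposed and 7.85, 7.18, 4.51, 5.81 and 4.65 in exposed mice. The groups did not overlap, and the change was -2.28 (SE 0.57, limma adjusted p = 0.0260). Leaving out any of 5 mice ended the call, exposed mice 4 and 5 and unexposed mice 1, 4 and 5 (the adjusted p ran from 0.00341 to 0.0655). Dnah2, 1 of the 2 heavy chains of the double-headed inner arm, was also lower (-0.92, limma adjusted p = 0.0235). Its 2 probe sets changed by -0.43 and -1.41, and leaving out exposed mouse 4 or 5, as well as unexposed mouse 3, 4 or 5, ended its call (the adjusted p ran from 0.00329 to 0.0614). Dnah10, the partner of Dnah2 in that arm, did not pass (-1.12, limma adjusted p = 0.277). It stood at 7.31 in exposed mouse 1, above the highest unexposed value of 6.98, and at 3.95 in exposed mouse 5. Dnah7a, another inner-arm motor, was 5.59, 4.88, 4.79, 5.41 and 5.26 in unexposed and 5.14, 5.33, 1.66, 3.43 and 2.78 in exposed mice. In exposed mice 1 and 2 it was inside the unexposed range and in the other 3 far below, and the change of -1.52 did not pass (limma adjusted p = 0.143). Dnah7a has the close copies Dnah7b and Dnah7c, so its value is uncertain. Dnah1, also of the inner arm, and Dnah14 changed by -0.94 and -0.36 and did not pass.

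**Figure D3:**
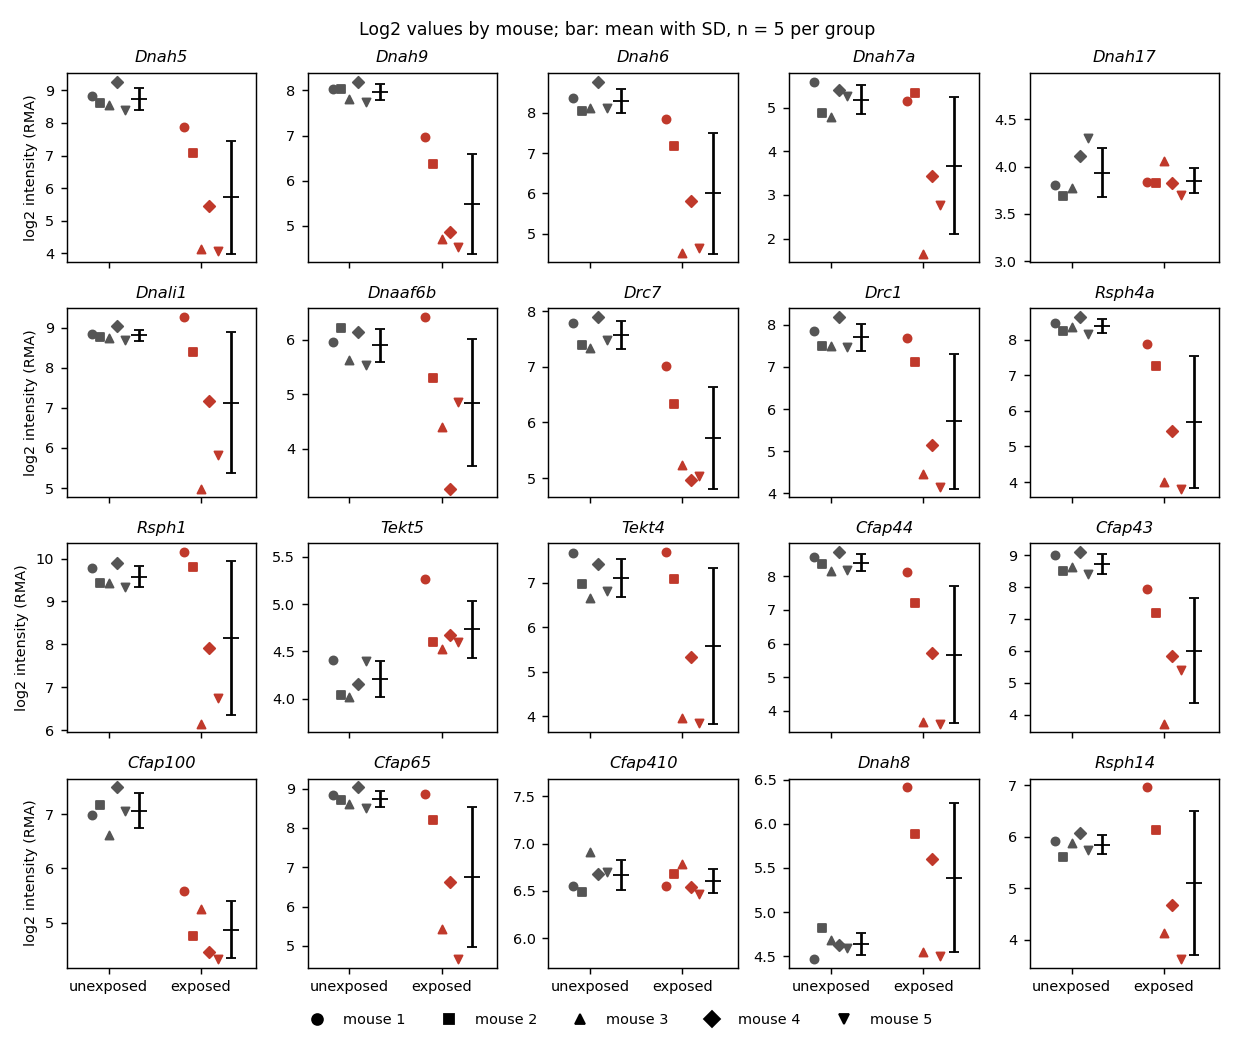
Log2 intensity of 20 axoneme genes in each mouse, grey for unexposed and red for exposed mice, with the mouse number as the symbol and the mean with its SD (n = 5) as a bar. The vertical scale differs between panels. Exposed mice 3, 4 and 5 lie below the unexposed mice for most genes. All 5 exposed mice do so for Dnah5, Dnah9, Dnah6, Drc7, Rsph4a, Cfap44, Cfap43 and Cfap100. Dnah8, Rsph14, Tekt5, Dnali1, Dnaaf6b, Rsph1 and Tekt4 show exposed values above the unexposed range.

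None of the 5 smaller dynein chains was called. Dnali1, a light chain of the inner arm, was 8.84, 8.76, 8.73, 9.03 and 8.69 in unexposed and 9.26, 8.39, 4.98, 7.18 and 5.83 in exposed mice. Exposed mouse 1 stood above and the other 4 below the unexposed range, and the change of -1.68 (SE 0.66) did not pass (limma adjusted p = 0.140). The outer-arm intermediate chains Dnaic1 and Dnaic2 changed by -1.49 (limma adjusted p = 0.0587) and -0.77 (0.129), and the outer-arm light chain Dnal1 by -0.62 (0.110). Dnal4, a light chain, changed by -0.086 (limma adjusted p = 0.819). Without exposed mouse 1, Dnali1, Dnaic1, Dnaic2 and Dnal1 passed, with adjusted p of 0.0220, 0.00742, 0.0319 and 0.0187.

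The 6 assembly factors had a median change of -0.36, the smallest after the tektins (-0.34), and none was called. Dnaaf6b, named as an assembly factor, was 5.96, 6.21, 5.62, 6.14 and 5.53 in unexposed and 6.41, 5.30, 4.40, 3.27 and 4.86 in exposed mice. Its change of -1.04 (SE 0.45) did not pass (limma adjusted p = 0.180), and it was lowest in exposed mouse 4, as were 9 of the 69 genes. Dnaaf1 stood at 7.83 in exposed mouse 1 and 7.19 in exposed mouse 2, above the highest unexposed value of 7.12, and 4.99 to 5.82 in the other 3 exposed mice, below the lowest unexposed value of 6.51. Dnaaf4 had the same arrangement, with 6.66 and 6.55 in exposed mice 1 and 2 against 6.17 to 6.40 in unexposed mice. Dnaaf1, Dnaaf4, Dnaaf3, Dnaaf6 and Dnaaf5 changed by -0.59, -0.49, -0.23, -0.098 and -0.082 (limma adjusted p 0.324 to 0.814). Dnaaf6 and Dnaaf6b bear the names of related copies whose signals on an array may mix, and the 2 probe sets of Dnaaf3 changed by 0.011 and -0.47, so these single values are uncertain.

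Of the 3 nexin-link genes, 1 was called. Drc7, a subunit of the nexin-dynein regulatory complex, was 7.79, 7.39, 7.33, 7.89 and 7.48 in unexposed and 7.01, 6.34, 5.24, 4.97 and 5.04 in exposed mice. Its groups did not overlap, and it was 3.62-fold lower in exposed mice (change -1.86, SE 0.36, limma adjusted p = 0.00692), a call that held with each mouse left out (adjusted p 0.000480 to 0.0219). Drc1, a core subunit of the link, was 7.86, 7.49, 7.51, 8.18 and 7.48 in unexposed and 7.68, 7.11, 4.45, 5.15 and 4.15 in exposed mice. Exposed mouse 1 lay inside the unexposed range, and the larger change of -2.0 (SE 0.61) did not pass (limma adjusted p = 0.0597, or 0.00809 without exposed mouse 1). Drc3 changed by -1.45 (limma adjusted p = 0.171), with exposed mouse 1 at 8.26, above the highest unexposed value of 8.00.

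Of the 7 radial spoke genes only Rsph4a was called. Rsph4a, a protein of the spoke head, was 8.48, 8.23, 8.36, 8.64 and 8.15 in unexposed and 7.89, 7.27, 3.99, 5.43 and 3.81 in exposed mice. The groups did not overlap, and the change was -2.69 (SE 0.70, limma adjusted p = 0.0307). Its call was lost in 8 of the 10 fits with a mouse left out, the exceptions being those lacking exposed mouse 1 or exposed mouse 2 (the adjusted p ran from 0.00455 to 0.0698). Rsph1, its neighbour in the spoke head, was 9.78, 9.43, 9.43, 9.89 and 9.35 in unexposed and 10.15, 9.79, 6.15, 7.91 and 6.75 in exposed mice. Exposed mouse 1 was above the unexposed range and exposed mouse 2 inside it, where Rsph4a was below it in both, and the change of -1.43 (SE 0.68) did not pass (limma adjusted p = 0.226). Rsph9, also of the spoke head, changed by -0.92 (limma adjusted p = 0.184). Rsph14 reached 6.96 in exposed mouse 1 and 6.14 in exposed mouse 2, and was 3.63 to 4.68 in the others, on both sides of the unexposed range of 5.60 to 6.08, and its change of -0.73 did not pass (limma adjusted p = 0.455). Rsph3a, of the spoke stalk, and Rsph6a, the sperm counterpart of Rsph4a, changed by -0.46 (0.0840) and -0.26 (0.114). Rsph3b changed by -0.11 (limma adjusted p = 0.864), and since Rsph3a and Rsph3b are close copies their separate values are uncertain.

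Tektins gave the 1 gene called higher. Tekt5, a tektin known from sperm tails, was 4.41, 4.04, 4.02, 4.15 and 4.40 in unexposed and 5.27, 4.60, 4.53, 4.67 and 4.60 in exposed mice. Every exposed mouse lay above every unexposed mouse, as was so for 5.89% of all genes, and the change was 0.53 (SE 0.15, limma adjusted p = 0.0450). The call was lost in 8 of the 10 fits with a mouse left out, the exceptions being those lacking exposed mouse 1 or exposed mouse 3 (the adjusted p ran from 0.0415 to 0.103), and also when dim genes were left out at the median of all genes, which removed Tekt5. All 10 of its values lay below the median of all gene values on each array, which was 5.47 to 5.54. Tekt4 was 7.66, 6.97, 6.66, 7.42 and 6.81 in unexposed and 7.69, 7.08, 3.97, 5.32 and 3.86 in exposed mice, with exposed mouse 1 just above and exposed mouse 2 inside the unexposed range. Its change of -1.52 (SE 0.68) did not pass (limma adjusted p = 0.194). Tekt1, Tekt3 and Tekt2 changed by -1.19, -0.34 and -0.24 (limma adjusted p = 0.217, 0.363 and 0.624), and Tekt2 was above the unexposed range in exposed mice 1 and 2.

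Among the 32 Cfap genes 10 were called lower and 22 did not pass. The 5 that set the activity of inner arms held 3 of the calls, and the 7 whose role is not stated here held 4. Sorting the Cfap genes by role was not among the planned comparisons. Cfap100, of a complex that modifies the inner arm, was 6.99, 7.17, 6.61, 7.49 and 7.05 in unexposed and 5.58, 4.76, 5.25, 4.47 and 4.34 in exposed mice. All 5 exposed mice were more than 1 unit below the lowest unexposed mouse. Its change of -2.18 (SE 0.24) had the smallest adjusted p of the 69 genes (0.000240 by limma, 9.55e-05 to 0.00111 with a mouse left out). Its SD among exposed mice was 0.53, against 1.64 for Cfap43 and 2.03 for Cfap44. Cfap73, its partner in that complex, changed by -0.70 and did not pass (limma adjusted p = 0.114).

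Cfap43 and Cfap44 tether the head of an inner arm to the doublet. Cfap43 was 9.01, 8.50, 8.63, 9.09 and 8.40 in unexposed and 7.93, 7.18, 3.72, 5.83 and 5.40 in exposed mice. The change was -2.71 (SE 0.63, limma adjusted p = 0.0175). Cfap44 was 8.58, 8.37, 8.15, 8.71 and 8.19 in unexposed and 8.12, 7.20, 3.66, 5.72 and 3.62 in exposed mice. For both genes the groups did not overlap, although for Cfap44 exposed mouse 1, at 8.12, was close to the lowest unexposed mouse, at 8.15. The change of Cfap44 was -2.74 (SE 0.77, limma adjusted p = 0.0427) and its call was lost in 8 of the 10 fits with a mouse left out, the exceptions being those lacking exposed mouse 1 or exposed mouse 2 (the adjusted p ran from 0.00589 to 0.0913). Cfap57, of another inner arm, changed by -1.81 (limma adjusted p = 0.0601).

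The 6 Cfap genes of the central apparatus, Cfap65, Cfap46, Cfap221, Cfap74, Cfap69 and Cfap47, changed by -1.98 to -1.01 and none passed (limma adjusted p 0.0542 to 0.194). Cfap65 was 8.84, 8.71, 8.61, 9.04 and 8.51 in unexposed and 8.86, 8.20, 5.44, 6.63 and 4.67 in exposed mice, with exposed mouse 1 inside the unexposed range (change -1.98, SE 0.67, limma adjusted p = 0.0886). At the base of the spokes, Cfap61 was called (-1.78, limma adjusted p = 0.0340) and Cfap206 was not (-1.58, limma adjusted p = 0.200). Of 6 genes for proteins inside the doublets, Cfap53 (-2.0, limma adjusted p = 0.0132) and Cfap77 (-0.98, limma adjusted p = 0.0250) were called, while Cfap45, Cfap161, Cfap126 and Cfap52 were not (-1.53 to -0.95). The calls of Cfap299 (-2.14), Cfap99 (-1.35), Cfap97d2 (-1.10) and Cfap58 (-0.95) had limma adjusted p of 0.0483, 0.0221, 0.0171 and 0.0118. Cfap70, Cfap20dc and Cfap97d1 changed by -1.22, -0.25 and 0.14 and did not pass. With a mouse left out, Cfap43, Cfap53, Cfap97d2 and Cfap58 kept their calls in all 10 fits, Cfap99 in 7, Cfap77 in 5, and Cfap299 and Cfap61 in 2 (highest adjusted p 0.0565, 0.0653, 0.111 and 0.0792 for the last 4 genes).

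Cfap298 and Cfap300, which serve dynein arm assembly, changed by -0.24 and -0.28 (limma adjusted p = 0.674 and 0.668). Cfap298 reached 7.67 in exposed mouse 1 and 7.44 in exposed mouse 2, above the highest unexposed value of 7.26, and 5.85 to 6.63 in the others, below the lowest of 6.95. Cfap20, Cfap36, Cfap97 and Cfap410, which are not restricted to motile cilia, changed by -0.33 to -0.063 (limma adjusted p 0.299 to 0.777). Cfap410 was 6.55, 6.49, 6.91, 6.68 and 6.70 in unexposed and 6.55, 6.68, 6.78, 6.54 and 6.47 in exposed mice, so that the groups overlapped almost fully.

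Over all 69 genes, 11 had no overlap between groups with exposed mice lower, against 5.06% of all genes. They were Dnah5, Dnah9, Dnah6, Dnah11, Drc7, Rsph4a, Cfap44, Cfap43, Cfap100, Cfap53 and Cfap58. In contrast, 22 genes had at least 1 exposed mouse above and at least 1 below all unexposed mice, a pattern found in 20% of all genes. Among these were Dnah10, Dnali1, Dnaaf1, Dnaaf4, Rsph1, Rsph9, Rsph14, Tekt1, Tekt2, Tekt4, Drc3 and Cfap298. The difference between these sets was not tested, since they were read from the same values.

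The promoters of the genes were searched for letters bound by factors that drive ciliogenesis. RFX factors bind the X-box, searched as GTTNCC, 0 to 3 bases of any kind, then GGNAAC, a pattern that reads alike on both strands. The forkhead factor Foxj1, the master regulator of motile cilia, belongs to a family that binds TGTTTAC, searched on both strands. RefSeq promoters of assembly GRCm38.p6, cut to the 250 bases before the start, were at hand for 61 of the 69 genes. The X-box was found in 3 of them, Cfap298, Cfap20dc and Dnaaf6 (4.92%, against 0.788% of 27025 genes), and in none of the 14 promoters of genes called lower. The forkhead letters were found in Cfap43, Cfap20, Dnah17 and Tekt3 (6.56%, against 3.54%). A match is a description and not a site, and its lack in this window says nothing of the factors. The printed promoters are that of the 1 gene called lower with a match, its forkhead letters on the reverse strand in capitals, and that of the gene with 2 X-box matches, also in capitals. Both were chosen after the matches were seen and both run 5′ to 3′ along the gene's minus strand, Cfap43 at chr19:47837362-47837611 and Cfap298 at chr16:90934850-90935099.
Cfap43: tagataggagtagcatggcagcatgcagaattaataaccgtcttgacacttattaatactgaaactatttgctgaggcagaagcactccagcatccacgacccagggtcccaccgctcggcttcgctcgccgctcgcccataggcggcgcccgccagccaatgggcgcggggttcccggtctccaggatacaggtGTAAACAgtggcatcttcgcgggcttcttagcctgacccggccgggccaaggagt
Cfap298: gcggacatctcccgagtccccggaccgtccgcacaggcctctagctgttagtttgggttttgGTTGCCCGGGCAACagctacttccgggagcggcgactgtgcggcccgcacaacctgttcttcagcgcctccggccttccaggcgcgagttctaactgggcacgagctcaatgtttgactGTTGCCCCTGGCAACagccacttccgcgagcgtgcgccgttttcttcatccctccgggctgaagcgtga
The forkhead letters of Cfap43 end 48 bases before its start. Cfap43 was lower in all 5 exposed mice, while Cfap298 was above the unexposed range in 2 exposed mice and below it in 3.

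Axoneme genes with other names were listed for comparison. Of 44 listed, 38 were measured, with a median change of -1.08. Of these, 7 were called lower and 0 higher, against 4.97% and 5.85% of all genes. Those called were the central apparatus genes Spag16 (-1.69, limma adjusted p = 0.00495), Hydin (-1.47), Spag6l (-1.53) and Spef2 (-2.0), the nexin-link gene Iqca (-2.12), the docking gene Ccdc114 (-0.84) and the dynein intermediate chain gene Wdr78 (-1.53). Leaving out exposed mouse 1 gave 24 called lower and leaving out exposed mouse 2 gave 12. Leaving out exposed mouse 4, unexposed mouse 1 or unexposed mouse 4 gave 1 each, and each of the other 5 mice 2 or 3. The share of all genes called lower was 6.34% without exposed mouse 1, 4.14% without exposed mouse 2 and 3.26% to 4.85% in the other fits. Of 11 measured genes for dynein and dynactin outside the axoneme, such as the cytoplasmic heavy chain Dync1h1 (0.07) and the light chain Dynlrb1 (-0.04), none was called (limma adjusted p 0.0941 to 0.967), and their changes ran from -0.19 to 0.28. The light chain Dynlrb2, listed with the axoneme genes, changed by -2.55 (limma adjusted p = 0.204) and stood at 10.56, 10.31, 3.91, 8.91 and 4.96 in exposed mice 1 to 5, against 10.01 to 10.61 in unexposed mice.

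Markers of ciliated and other cells were set beside the axoneme genes. Of 12 ciliated cell genes listed apart from the axoneme genes, 4 were called lower, against 4.97% of all genes. These were Cdhr3 (-3.77), Sntn (-3.64), Tmem212 (-3.56) and Ccdc153 (-2.13). Whether some of the 12 also encode parts of the axoneme was not examined. Foxj1 was 8.24, 7.52, 5.00, 7.09 and 5.55 in exposed mice 1 to 5 and 7.88 to 8.39 in unexposed mice (change -1.37, limma adjusted p = 0.127). Mcidas, which starts multiciliated cell formation, changed by 0.69 and did not pass (limma adjusted p = 0.0808), its exposed mice spanning 5.63 to 6.92 and its unexposed mice 4.94 to 5.63. Ccno was above all unexposed mice in every exposed mouse but exposed mouse 3 (change 0.58, limma adjusted p = 0.570). The other 10 of the 12 genes had a lower mean in exposed mice. Among them, Gmnc changed by -0.96 and did not pass (limma adjusted p = 0.0638), though all 5 exposed mice lay below all unexposed mice. Groups were apart in this direction for 5.06% of all genes. Rfx2 and Rfx3 changed by -0.38 and -0.59 and did not pass (limma adjusted p = 0.1005 and 0.207).

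Of 6 secretory cell genes none was called, but 5 had no overlap between groups with exposed mice lower, against 5.06% of all genes. The mean log2 value of the 6 genes was 5.27 in exposed mouse 3, 9.95 to 11.65 in the other exposed mice and 11.86 to 12.07 in unexposed mice. The mean of 6 pan-epithelial genes was 8.27 in exposed mouse 3, 8.93 to 9.26 in the other exposed mice and 8.68 to 9.14 in unexposed mice. This mean joins genes that moved apart, none of them called. Cdh1, Epcam and Krt18 changed by -0.37, -0.28 and -0.14, and Krt8, Cldn7 and Krt19 by 0.36, 0.18 and 0.11. In exposed mouse 3, 4 of the 6 lay below all unexposed mice, where 23.2% of all genes did. The mean of 5 basal cell genes ran from 7.12 to 8.23 after exposure and from 7.28 to 7.49 without it, but Krt14 alone was higher (change 4.31, called), while Krt15, Dlk2, Trp63 and Ngfr changed by -0.52, -0.50, -0.40 and -0.12, of which Dlk2 was called. Of the 7 mesenchymal genes, Col3a1 (1.04), Col1a1 (0.87) and Pdgfra (0.68) were called higher (limma adjusted p = 0.00295, 0.0191 and 0.0206), against 5.85% of all genes. With exposed mice higher, 4 of the 7 had no overlap between groups, against 5.89% of all genes. In exposed mouse 5 the axoneme genes were about as low as in exposed mouse 3. The pan-epithelial mean of exposed mouse 5 was 9.13, within the unexposed range. The secretory genes were also low in exposed mouse 5, with a mean of 10.34, a median difference of -1.76 from the unexposed mean and 5 of 6 genes below all unexposed mice. When the mean of the pan-epithelial genes entered the fit, 21 axoneme genes were called lower and 1 higher. In that fit 6.19% of all genes were called lower, against 4.97% without it. Because the 6 pan-epithelial genes moved in opposite directions, that fit does not measure how much epithelium was taken along. The part of the amount of epithelium, and of the secretory, basal and mesenchymal markers, in the result was not tested.

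**Figure D4:**
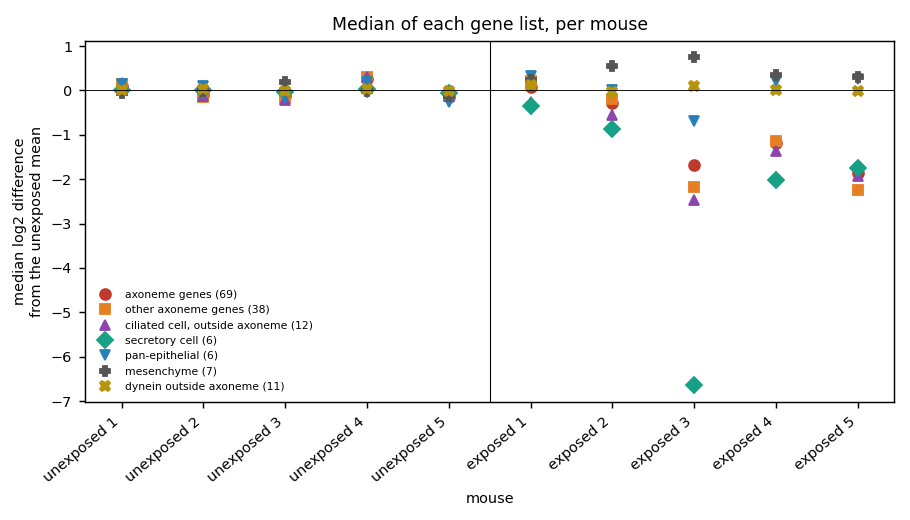
Median over each gene list of the log2 difference from the mean of the 5 unexposed mice, for each mouse, with the number of genes in brackets. The 3 lists of cilium genes and the secretory genes lie far below 0 in exposed mice 3, 4 and 5 (secretory -6.65, -2.01 and -1.76), while dynein genes outside the axoneme stay near 0.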

How the data were processed

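The authors deposited log2 intensities per probe set, and the submitters' processing notes name RMA and Partek 6.6. Their range of values shows the log base. For RMA settings, filters and build, nothing was given in the sources at hand. The 41345 probe sets had 23521 with 1 gene symbol, 1814 with several and 16010 unlisted. A gene's value was the mean of its single-symbol probe sets, and 4 of the 69 members had 2 probe sets. Scanner files were not used, so no detection limit exists. The comparison of exposed and unexposed mice used limma 3.58.1 under R 4.3.3 (lmFit, eBayes, two-sided), with Benjamini-Hochberg adjustment over 22180 genes and calls at an adjusted p under 0.05. The fit was tested on simulated data with the spread of the unexposed mice in both groups, so unequal spread was not covered. Members, lists and tests were chosen with earlier results of these data known. Per name group, values per mouse are given for up to 3 called genes with the largest change, the uncalled gene with the largest change and, in groups of at least 8, the uncalled one nearest 0. Rises called are also given. Dnah8, Rsph14 and the other genes described per mouse beyond this were chosen after their values were seen. The fixed rule for promoters found none, as 0 named called genes held the X-box. Same-numbered mice were not paired by the labels (correlations of deviations -0.0488 to 0.125). Python 3.11.15, pandas 2.3.3 and matplotlib 3.10.9 made tables and figures.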

Additional observations from a re-analysis of the deposited data

Results flagged for a closer look

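In 4 of 140 groups of 5 mice examined (69 genes and their median, in exposed and in unexposed mice), 1 mouse stood apart from the other 4 by more than 0.71 of the group's range, and chance alone marks about 1 group in 20. Tekt5 was 5.27 in exposed mouse 1, with 4.53 to 4.67 in the other exposed mice. Cfap99 was 7.15 in unexposed mouse 4, with 6.29 to 6.5 in the others. Dnaic1 was 7.71 in unexposed mouse 4, with 6.94 to 7.16 in the others. Dnah14 was 4.56 in unexposed mouse 5, with 4.21 to 4.30 in the others.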

How the results depend on the processing

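With 1 mouse left out, the number of axoneme genes called lower ranged from 9 to 43 and called higher from 0 to 1, the other axoneme genes called lower from 1 to 24, and the median change of the 69 genes from -1.43 to -0.82. The share of all genes called lower in these fits ran from 3.26% to 6.34%. At an adjusted p under 0.01, 3 were lower and 0 higher, with 1 of the other axoneme genes lower (1.96% of all genes lower). In a test against a 1.2-fold change, these counts were 6, 0 and 1 (1.56% of all genes lower). Called genes with at least a 2-fold difference numbered 14 lower and 0 higher, against 1.57% of all genes lower. When only genes above the median of all genes were kept, 54 of the 69 genes remained. Of these, 21 were lower and 0 higher, and of all genes kept 10.8% were lower. With trend and robust settings 12 axoneme genes were lower, Dnah6, Rsph4a, Cfap44, Cfap299 and Cfap61 losing their calls (adjusted p 0.0556 to 0.0873), and 4 of the other axoneme genes. Of the latter, 11 were lower with the pan-epithelial covariate. The share of all genes called lower was 5.33% with trend and robust settings and 6.19% with the covariate. With the mouse number as a block, 16 of the 69 genes were lower and 1 higher (3.85% of all genes lower), Dnah2 losing its call (adjusted p = 0.0601). Same-numbered mice did not deviate together in every pair, and 1 of the 5 exposed mice correlated best with its own number. Directions turned only for 4 uncalled genes: Rsph3b (0.038 with array weights, 0.13 without exposed mouse 3, 0.064 without unexposed mouse 2), Dnal4 (0.043 without exposed mouse 4), Dnah17 (0.0073 without unexposed mouse 5) and Cfap298 (0.0011 without exposed mouse 3). Their lowest values with a mouse left out were -0.26, -0.20, -0.15 and -0.45. The cause of these changes was not tested. Of the 18 called genes, 9 kept their call in all planned fits that tested them at an adjusted p under 0.05, the test against 1.2-fold apart. Centring, quantile normalization and the brightest probe set gave 16 to 17 lower and 1 higher, with 4.23% to 4.99% of all genes lower.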
